A study of Drosophila melanogaster and Drosophila mauritiana and Drosophila simulans with 22 samples.

Results

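Arr2 and trpl are 2 genes of the Drosophila photoreceptor, followed here through 22 arrays of testis RNA. Members were the array rows whose only gene symbol in the probe table was Arr2 or trpl. Each gene had 2 such rows, 4 of the 15116 rows with 1 symbol, so the members were 2 of 6793 genes. Both genes had a value on at least 2 arrays of every group, and both were among the 5107 genes tested.

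Every array compared testis RNA, labelled with Cy5, with RNA of whole D. melanogaster males of strain 14021-0231.00, labelled with Cy3. Testes came from D. melanogaster of that same strain, D. simulans (14021-0251.2), D. mauritiana (14021-0241.1) and D. sechellia (#12, with no strain given for replicate 3). The hybrid sons of D. simulans mothers formed 3 further groups, called melanogaster, mauritiana and sechellia hybrids after the species of the father, with no strains given for them. There were 4 mauritiana arrays and 3 arrays of every other group. All males were 4 days old and raised at 25 °C with 12 h of light per day, each RNA extract was a pool of 200 testes labelled as free of accessory glands, and hybrid crosses held 10 females and 15 males per vial. Testis RNA went through 1 round of amplification, and dyes were never swapped. The labels do not say that replicates came from separate rearings, so p-values measure only the spread between these samples.

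In fly photoreceptors, light turns rhodopsin into metarhodopsin, which acts through the G protein Gq and phospholipase C to open the cation channels TRP and TRPL. Arr2 is the major visual arrestin, a protein that binds metarhodopsin and ends its signalling, and trpl encodes the TRPL channel. Both genes are known for their expression in the eye, an organ that the whole-male reference contains and dissected testes do not.

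Values are log2 ratios of testis over whole-male RNA with each array centred on its median, so a negative value is a lower ratio in testes than that of the median row. Base 2 is inferred, and fold values assume it. Arrays held 13019 to 27648 values. Between 44.3% and 46.0% of the named rows were empty on mauritiana replicate 3 and on sechellia hybrid replicates 1 and 2. The sechellia arrays stood apart: the SD between duplicate rows was 1.17 to 1.73 there and 0.20 to 0.47 elsewhere, and their median correlation with the other arrays of their group was 0.28 to 0.43. That correlation was 0.38 to 0.62 on the sechellia hybrid arrays and 0.74 to 0.91 in the other groups. The testis label was checked against 7 testis markers. Of these, 5 were higher than the array median in melanogaster, 5 in simulans, 6 in mauritiana and 3 in sechellia, where 30.4%, 20.6%, 26% and 17.9% of all tested genes were called higher. In the melanogaster, mauritiana and sechellia hybrids 0, 3 and 1 were higher, where 18.9%, 26.1% and 5.19% of all tested genes were. Lower calls were 5 in the melanogaster hybrid, 1 in sechellia and 1 in the sechellia hybrid, and 0 in the other groups. Of all tested genes, 14.8%, 27.3% and 10.7% were called lower in those groups, in that order, and 9.83% to 17.9% in the others. The 1 marker lower in sechellia (-2.32) and in the sechellia hybrid (-1.76) was soti, named here after its values were seen. Probes were named by D. melanogaster genes, and the part of sequence differences between species in the ratios was not tested. In bulk RNA, fewer cells of a type and less RNA per cell cannot be told apart.

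Arr2 was far lower in testes than in whole males in all 7 groups, and it was among the 4 lowest of 5107 tested genes in each. In the melanogaster arrays the Arr2 ratio was -5.10, -5.50 and -6.45, a mean of -5.69 ± 0.69 (SD, n = 3), or 51.5-fold below the array median. The limma test across all genes gave an adjusted p of 2.28e-06, against a background of 13.9% of tested genes called lower in that group. Only 2 or 3 genes per array lay below Arr2 in these replicates.

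The simulans arrays gave Arr2 ratios of -5.25, -5.59 and -4.65, with a mean of -5.16 ± 0.47 (SD, n = 3) and an adjusted p of 1.74e-05. In mauritiana, replicates 1, 2 and 4 were at -5.04, -6.27 and -6.34, and replicate 3 had no value for either row. Their mean was -5.88 ± 0.73 (SD, n = 3), with an adjusted p of 9.45e-07. These 3 species overlapped with one another in single arrays. The backgrounds were 9.83% of genes called lower in simulans and 17.9% in mauritiana.

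The sechellia arrays spread most for Arr2, with ratios of -5.71, -6.63 and -11.34. The mean was -7.89 ± 3.02 (SD, n = 3), with an adjusted p of 5.53e-08 where 27.3% of genes were called lower. Replicates 2 and 3 each rested on a single row, and replicate 3 alone lay below every Arr2 value of the other groups, whose lowest was -7.13. The SE of the fit, 0.67, came from the pooled spread of all groups. With limma run on the sechellia arrays alone, the SE of the same mean was 1.27 and its adjusted p was 0.105.

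Arr2 was also far below 0 in hybrid testes. The melanogaster hybrid arrays were at -5.36, -5.29 and -6.05, with a mean of -5.57 ± 0.42 (SD, n = 3) and an adjusted p of 4.85e-06. The mauritiana hybrid arrays were at -5.84, -5.45 and -7.13, with a mean of -6.14 ± 0.88 (SD, n = 3) and an adjusted p of 1.08e-06. Each hybrid overlapped with its father species. The sechellia hybrid had values on replicates 1 and 3, at -6.10 and -5.81 from 1 row each, and none on replicate 2. Its mean was -5.96 ± 0.20 (SD, n = 2), with an adjusted p of 4.52e-05. The share of all genes called lower was 14.8%, 11.7% and 10.7% in the melanogaster, mauritiana and sechellia hybrids.

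**Figure D1:**
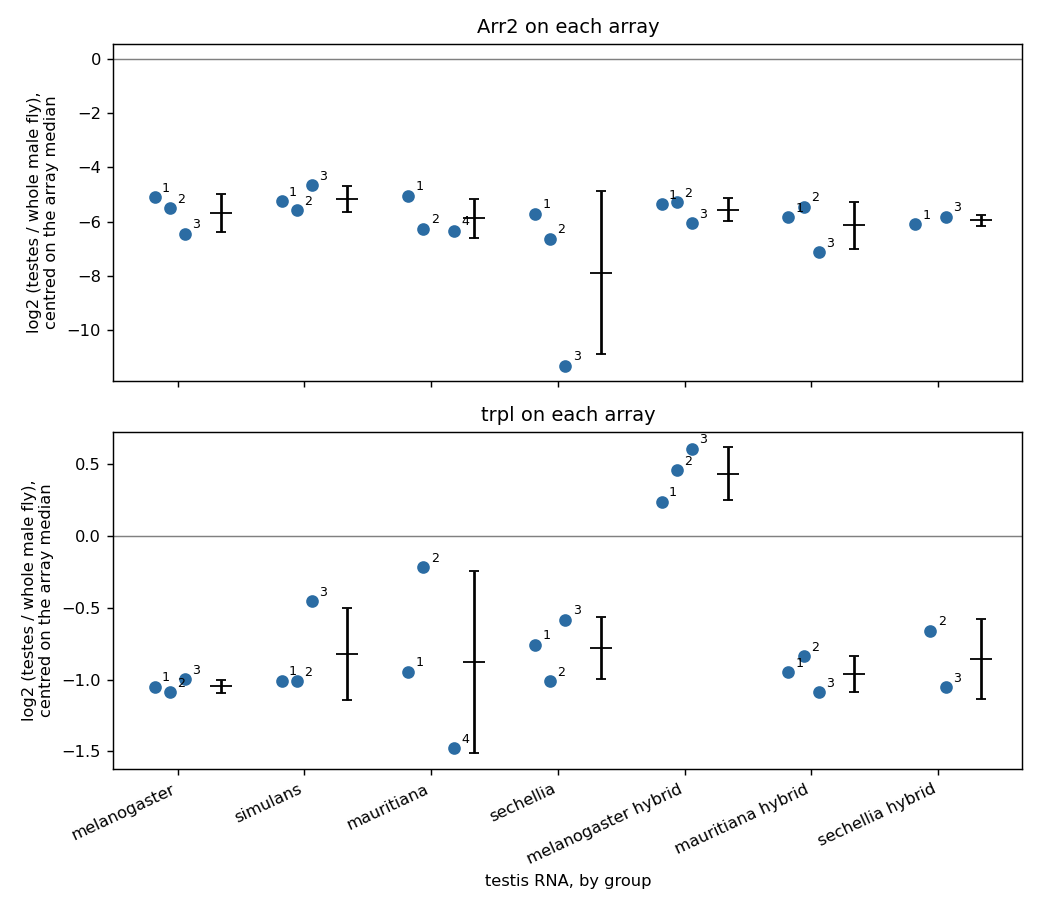
Centred log2 ratio of testis over whole-male RNA (vertical axis) for Arr2 (top) and trpl (bottom) on each array, by group. Points are arrays, numbered by replicate, and bars give mean and SD. All Arr2 points lie at or below -4.65, and the 3 melanogaster hybrid points for trpl lie at 0.24 to 0.61.

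trpl lay below the array median in 6 of the 7 groups, by much less than Arr2, and above it in the melanogaster hybrid. The melanogaster arrays gave trpl ratios of -1.05, -1.09 and -0.998, a mean of -1.05 ± 0.05 (SD, n = 3), or 2.06-fold below the array median, with an adjusted p of 0.00138. The simulans arrays were at -1.01, -1.01 and -0.45, with a mean of -0.82 ± 0.32 (SD, n = 3) and an adjusted p of 0.0114. The spread of trpl between melanogaster arrays was narrow beside that in simulans, where replicate 3 stood above the other 2. However, the melanogaster replicate 3 value averaged rows at -1.52 and -0.47, while the 2 rows of a simulans array differed by 0.11 to 0.19. Without simulans replicate 1 or 2 the simulans value was no longer past the threshold, at -0.73 with an adjusted p of 0.105 or 0.104.

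In mauritiana, trpl was at -0.94 in replicate 1, -0.22 from 1 row in replicate 2 and -1.48 in replicate 4, with no value in replicate 3. The mean was -0.88 ± 0.63 (SD, n = 3), with an adjusted p of 0.00497. Replicate 4 carried that call, since without it the mean was -0.58 and the adjusted p was 0.0984. The sechellia arrays were at -0.76, -1.01 and -0.58, a mean of -0.78 ± 0.22 (SD, n = 3) with an adjusted p of 0.011. Without sechellia replicate 2 the value was -0.67 and the adjusted p 0.079. With limma run on the sechellia arrays alone the adjusted p was 0.235.

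The mauritiana hybrid had trpl ratios of -0.95, -0.84 and -1.09, a mean of -0.96 ± 0.13 (SD, n = 3) with an adjusted p of 0.00319. In the sechellia hybrid, replicates 2 and 3 were at -0.66 and -1.05 and replicate 1 had no value. Their mean was -0.86 ± 0.28 (SD, n = 2), at an adjusted p of 0.0496, and 16 of 22 fits that left out 1 array ended the call, with an adjusted p of up to 0.388 without sechellia hybrid replicate 3. Both hybrids overlapped with simulans and with their father species for trpl.

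The melanogaster hybrid was the exception, with trpl ratios of 0.24, 0.46 and 0.61 and a mean of 0.44 ± 0.19 (SD, n = 3). Its adjusted p against 0 was 0.177, so trpl was not called different from the array median there. As deposited, before centring, its 6 row values ran from -0.31 to 0.29, against -1.98 to -0.93 for the 6 row values in melanogaster. The highest trpl value on any array of another group was -0.22. The share of all genes whose melanogaster hybrid arrays lay above all other arrays was not counted.

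The place of each gene among all genes of an array was read as well. On 19 of the 20 arrays with a value for Arr2, at most 5 genes lay below it, and on sechellia replicate 2 there were 28. No gene lay below Arr2 on sechellia replicate 3 or on sechellia hybrid replicate 1. For trpl, 7.99% to 35.9% of genes lay below it on the 17 arrays outside the melanogaster hybrid and 66.4% to 77.7% on the 3 arrays of that hybrid.

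**Figure D2:**
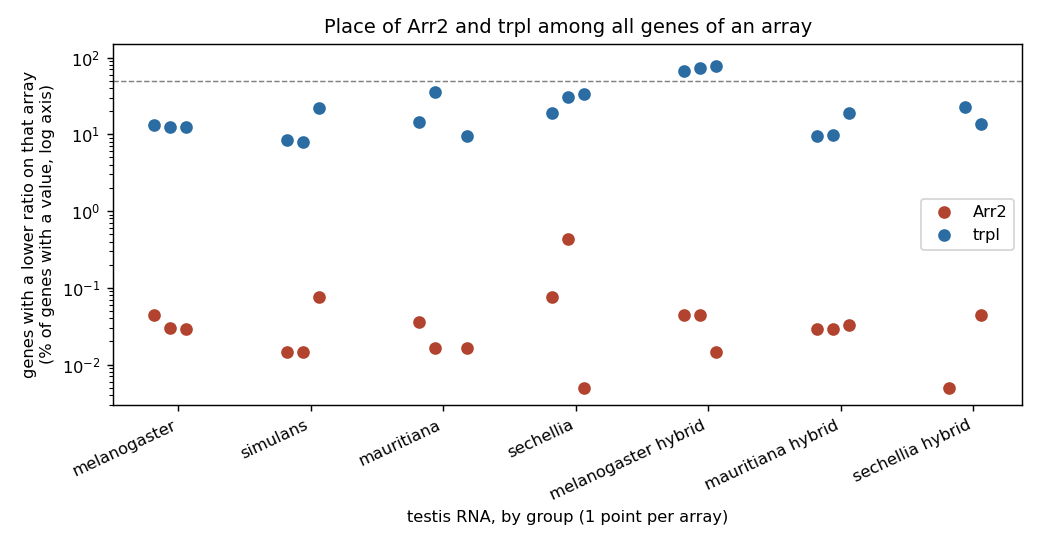
Share of the genes with a value on an array whose ratio was lower than that of Arr2 (red) or trpl (blue), in percent on a log axis, with 1 point per array. The dashed line marks the middle gene, and the 2 lowest Arr2 points, on arrays with no lower gene, are drawn at the bottom because 0 has no place on a log axis. Arr2 is near the bottom of every array, and trpl is above the middle in the melanogaster hybrid only.

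The groups were then compared with one another in 12 comparisons, 6 between species and 6 between a hybrid and a parent species. The share of all tested genes called in either direction was 1.06% in simulans minus melanogaster, 6.64% and 11% in mauritiana minus melanogaster and minus simulans, and 33.7% and 26.2% in sechellia minus melanogaster and minus simulans. It was 22.8% in mauritiana minus sechellia. For the hybrids minus simulans and minus the father species it was 23.6% and 30.4% in the melanogaster hybrid, 3.6% and 4.5% in the mauritiana hybrid, and 13.6% and 11.4% in the sechellia hybrid. Of the 12 comparisons for trpl, 2 passed the test, and both used the same melanogaster hybrid arrays. trpl was higher by 1.48 ± 0.33 (SE) on the log2 scale in the melanogaster hybrid than in melanogaster testes, with a 95% interval of 0.78 to 2.18 and an adjusted p of 0.00193 (limma). Against simulans it was higher by 1.26 ± 0.33 (SE), with an interval of 0.56 to 1.95 and an adjusted p of 0.00864. In these comparisons 10.3% and 9.69% of all tested genes were called higher.

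Every melanogaster hybrid array lay above every array of either parent for trpl. Such a separation upwards held for 28.7% of tested genes against melanogaster and for 28.5% against simulans. The difference from melanogaster stayed past the threshold in all 22 fits that left out 1 array, at 1.39 to 1.58. The difference from simulans did as well, at 1.17 to 1.44. It was lost without centring, at 1.07 with an adjusted p of 0.0923, and with the closest arrays of a group averaged, at 1.17 with an adjusted p of 0.0596. The arrays averaged were melanogaster replicates 1 and 2, simulans replicates 1 and 2, and sechellia hybrid replicates 1 and 3. The labels do not say whether any of them were repeat arrays of 1 RNA extract.

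Of the 12 comparisons of Arr2, 1 passed the test. Arr2 was lower in sechellia than in simulans, with a difference of -2.73 ± 0.94 (SE), an interval of -4.70 to -0.75 and an adjusted p of 0.0399. All sechellia arrays lay below all simulans arrays, as for 28% of tested genes, and 19.5% of tested genes were called lower in that comparison. Without sechellia replicate 3 the difference was -1.01 with an adjusted p of 0.198. Leaving out simulans replicate 1, 2 or 3 also ended the call, with adjusted p-values of 0.0938, 0.0773 and 0.112. Quantile normalization and scaling of the arrays to 1 spread turned the difference positive, to 0.98 and 0.85, and neither value passed the test.

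The other Arr2 differences had wide intervals. The difference between the melanogaster hybrid and melanogaster was 0.12, with an interval of -1.86 to 2.09, which did not exclude a change of several fold in either direction. Sechellia minus melanogaster was -2.21 with an adjusted p of 0.0785, and mauritiana minus sechellia was 2.01 with an adjusted p of 0.133. The 2 sechellia hybrid arrays lay below all simulans arrays, as for 26% of genes, at a difference of -0.79 with an adjusted p of 0.711.

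For trpl, the intervals outside the melanogaster hybrid were narrower. Simulans minus melanogaster was 0.22, with an interval of -0.47 to 0.92. Mauritiana hybrid minus simulans was -0.14, with an interval of -0.83 to 0.56. Sechellia minus simulans was 0.04, with an interval of -0.66 to 0.74. Each of these 3 intervals extended beyond 0.5 on the log2 scale in at least 1 direction.

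**Figure D3:**
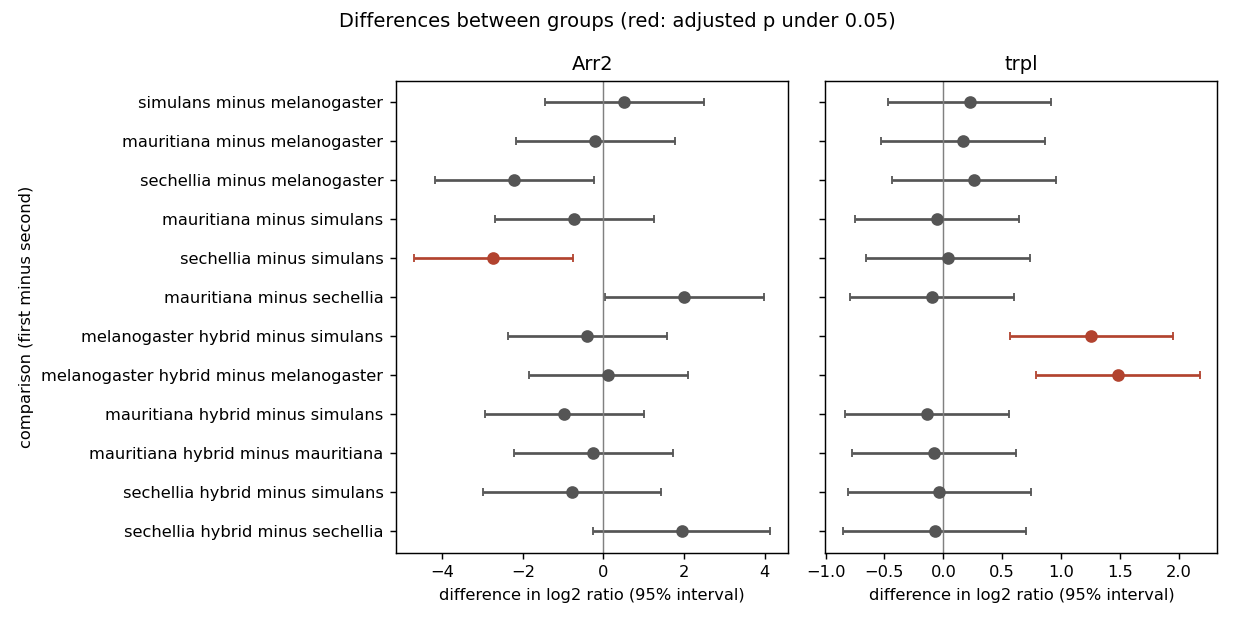
Differences in centred log2 ratio (horizontal axis, with 95% intervals) between groups for Arr2 (left) and trpl (right) in the 12 comparisons, each the first group minus the second. Red marks an adjusted p under 0.05: sechellia minus simulans for Arr2, at -2.73, and melanogaster hybrid minus simulans and minus melanogaster for trpl, at 1.26 and 1.48. The axes of the panels differ in range.

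Over all 7 groups together, the moderated F of trpl was 4.68 with an adjusted p of 0.0117, where 57.5% of tested genes passed. Without melanogaster hybrid replicate 2 or 3 the F was 3.08 or 2.76, with an adjusted p of 0.0592 or 0.0805. The F of Arr2 was 1.73 with an adjusted p of 0.219. In order of their means, the Arr2 levels ran from simulans through the melanogaster hybrid, melanogaster, mauritiana, the sechellia hybrid and the mauritiana hybrid to sechellia, and each neighbour in that order overlapped with the next. For trpl the order ran from the melanogaster hybrid through sechellia, simulans, the sechellia hybrid, mauritiana and the mauritiana hybrid to melanogaster. Only the first step was free of overlap, and the share of all genes with such a step was not counted.

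The ratios of the 2 genes showed little correlation. Over the 19 arrays with both, Pearson's r between Arr2 and trpl was 0.05, and 0.17 over the 16 arrays outside sechellia, values that describe arrays sharing groups and 1 reference. Both rows of Arr2 had a value on 16 arrays, where they differed by a median of 0.15 and by 1.66 at most, on melanogaster replicate 1. Both rows of trpl had a value on 19 arrays, with a median difference of 0.19 and a largest one of 1.05, on melanogaster replicate 3. Row differences in trpl were thus mostly small beside the distance between the melanogaster hybrid and its parents.

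The genes of the phototransduction pathway were read from a list of 39. Of these, 18 were on the array under their listed symbols and 15 were tested, Arr2 and trpl among them. Among the 15, 6 were lower and 2 higher than the array median in melanogaster testes, and the list's median was -1.05 beside 0.18 over all tested genes. Of all tested genes, 13.9% were called lower and 30.4% higher in melanogaster. The number lower was 5 in simulans, 9 in mauritiana, 13 in sechellia, 6 in the melanogaster hybrid, 8 in the mauritiana hybrid and 7 in the sechellia hybrid. In the same order, 9.83%, 17.9%, 27.3%, 14.8%, 11.7% and 10.7% of all tested genes were called lower. The list's medians there were -0.82, -0.88, -1.99, -0.36, -0.96 and -1.07, beside 0.04, -0.09, -0.16, -0.01, 0.11 and 0.02 over all tested genes. In melanogaster, simulans, mauritiana and the mauritiana hybrid the median was the trpl value itself. Without Arr2 and trpl, 4, 3, 7, 11, 5, 6 and 5 of the other 13 were lower, from melanogaster to the sechellia hybrid in that order. Their medians were -0.77, -0.61, -0.79, -1.99, -0.36, -0.81 and -1.07. Of the 13, 2 were higher in melanogaster, 1 in the melanogaster hybrid and 0 elsewhere, beside 30.4%, 18.9% and 5.19% to 26.1% of all tested genes. In sechellia the count over the 15 was 0 with limma run on its own arrays alone.

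Some of the counts over the 15 genes rested on 1 array. Without simulans replicate 1 or 2 the simulans count was 2 or 3, without mauritiana replicate 4 the mauritiana count was 5, and without melanogaster hybrid replicate 3 the count there was 2. The mauritiana hybrid count was 4 without its replicate 3, and the sechellia hybrid count was 4 without its replicate 1 or 3.

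Among the receptor and chromophore genes, calls went in both directions. Rh7, an opsin, was at 0.05 in melanogaster and was not tested. ninaG, an oxidoreductase that acts in making the rhodopsin chromophore, was higher in melanogaster at 1.71 (adjusted p 0.0258) and lower in sechellia at -1.99 (adjusted p 0.0328). The sechellia mean came from 2 arrays of opposite sign, -4.18 and 0.19, and without sechellia replicate 2 it was 0.19. The melanogaster call was lost without replicate 1 or 2, at 1.46 or 1.38. Cnx99A, a calnexin that acts as a rhodopsin chaperone, was higher in melanogaster at 1.02 (adjusted p 0.0104) and lower in sechellia and in the sechellia hybrid, both at -1.13. Its call was lost in melanogaster without replicate 1 (0.95) or 2 (1.03) and in the sechellia hybrid without replicate 1 (-1.16) or 3 (-0.98). santa-maria, a scavenger receptor for carotenoids, ran from -0.12 to 0.75 over the groups and passed in none. pinta, a retinoid-binding protein, was higher in the melanogaster hybrid at 2.24 (adjusted p 0.00343) and lower in sechellia at -2.52, where single arrays ran from -4.85 to 0.43 and leaving out 1 array gave -3.99 to -1.35.

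Downstream of rhodopsin, the genes differed from one another. Galphaq, the Gq alpha subunit, was lower in 6 of 7 groups, with means of -2.29 to -0.57. rdgA, a diacylglycerol kinase, was lower in 1 group, sechellia, at -2.34 (-1.15 with an adjusted p of 0.0642 without replicate 2), and rdgB, a phosphatidylinositol transfer protein, was not tested and ran from -0.54 to 0.27. laza, a lipid phosphatase, was called in no group against 0.

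TRP, the partner channel of TRPL, had too few values in the sechellia hybrid to be tested. The trp ratio was -2.01 ± 0.29 (SD, n = 3) in melanogaster, -1.39 ± 0.26 (n = 3) in simulans and -1.02 ± 0.28 (n = 3) in the melanogaster hybrid. Where trpl lay above 0, trp lay below it on all 3 melanogaster hybrid arrays, at -1.34 to -0.81. These arrays lay above all 3 melanogaster arrays for trp, which ran from -2.28 to -1.70, as for 28.7% of tested genes, and overlapped with the simulans arrays, which ran from -1.60 to -1.09. The means of trp in the other groups ran from -3.15 in sechellia to -0.72 on the 1 sechellia hybrid array with a value. Among other TRP channels, pyx, a thermosensitive channel, was higher in sechellia at 1.34 and passed in no other group. Its sechellia arrays were at 0.63, 3.12 and 0.28, and without replicate 2 the value was 0.45 with an adjusted p of 0.304. Trpml, a lysosomal channel, was not tested and stood at -0.48 in melanogaster.

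Most of the genes for partners of the channels, for ending the response and for rhabdomere structure had low ratios in testes. inaD, the scaffold that holds the signalling complex together, was lower in 6 of 7 groups with means of -5.63 to -1.30. inaC, the eye protein kinase C, was lower in 2, with means of -1.82 to 0.39. Arr1, the other visual arrestin, was lower in all 7 groups, with means of -2.49 to -0.79. rdgC, the rhodopsin phosphatase, was lower in 5 groups, rtp, which encodes the rhabdomere protein retinophilin, in 6, and chp, which encodes the photoreceptor adhesion protein chaoptin, in 4.

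**Figure D4:**
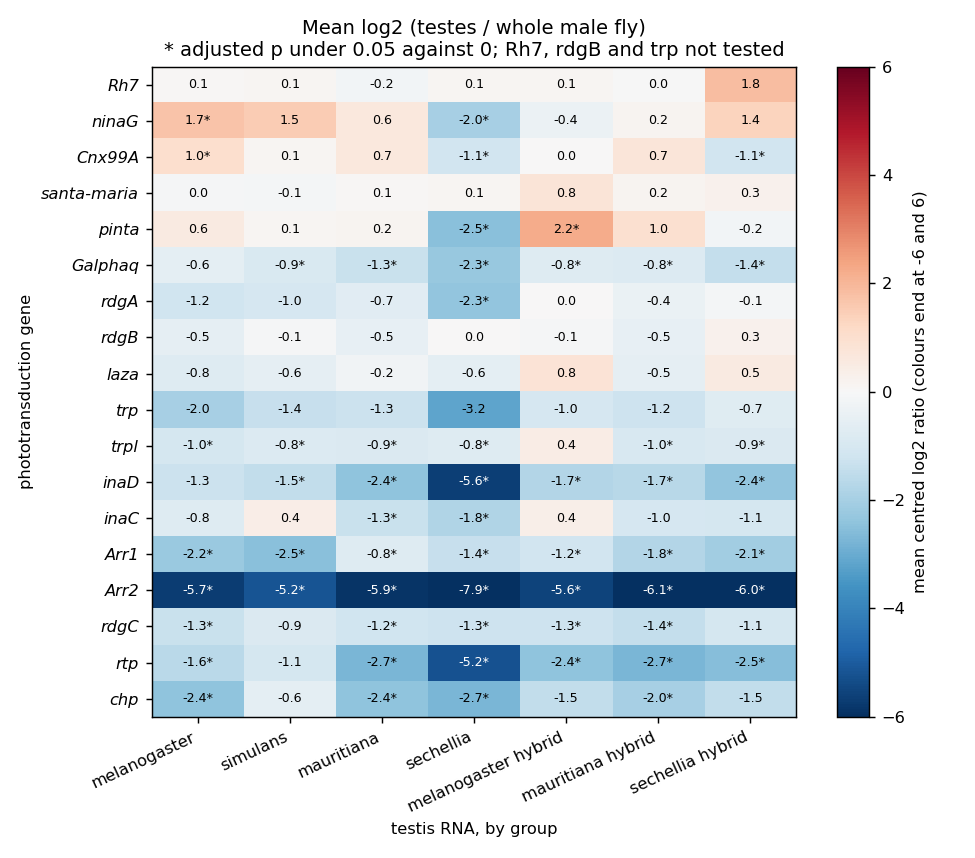
Mean centred log2 ratio of testis over whole-male RNA for the 18 phototransduction genes on the array (vertical) in the 7 groups (horizontal), printed to 1 decimal, with stars for an adjusted p under 0.05 against 0. Blue is below and red is above the array median. Arr2 is the darkest line in all 7 groups, and trpl is blue in 6 groups and pale red in the melanogaster hybrid.

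In the melanogaster hybrid 2 of the 15 genes were higher than in melanogaster and 0 lower, where 10.3% of all tested genes were called higher and 20.1% lower. These were trpl and laza, the second at 1.57 ± 0.57 (SE) with an adjusted p of 0.0451, a call that 17 of 22 fits leaving out 1 array ended, with adjusted p-values of up to 0.129. Against simulans 2 of 15 were higher and 0 lower, where 9.69% and 13.9% of all tested genes were called so. These were trpl and Arr1, the second at 1.33 ± 0.45 (SE) with an adjusted p of 0.0373, lost in 5 of the 22 fits, with adjusted p-values of up to 0.163. Arr1 was 1.07 higher than in melanogaster and did not pass. Arr1 was also the 1 gene of the list called in mauritiana minus melanogaster, at 1.44 (adjusted p 0.0453), and in mauritiana minus simulans, at 1.71 (adjusted p 0.0148), where 2.19% and 6.74% of all tested genes were called higher. The first was lost in 13 of the 22 fits and the second in 1, without simulans replicate 3 (adjusted p 0.0792).

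The largest counts of list genes called between groups involved sechellia. Of the 15, 6 were lower in sechellia than in melanogaster and 8 lower than in simulans, where 26.1% and 19.5% of all tested genes were called lower. Arr2 was among the 8 and not among the 6, and trpl was in neither. In mauritiana minus sechellia 6 of 15 were higher, where 16.5% of tested genes were, and in sechellia hybrid minus sechellia 2 of 15 were, where 5.4% of tested genes were. Neither member was among these. In the remaining 4 comparisons 0 of the 15 passed.

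In the melanogaster hybrid, tissue markers differed from the parents beside trpl. Of 7 testis markers, 6 were lower there than in either parent. Of all tested genes, 20.1% were called lower against melanogaster and 13.9% against simulans. The median of the testis list on an array was -3.09 to -2.36 in the hybrid, 2.16 to 2.33 in melanogaster and 1.51 to 1.89 in simulans. dj and Mst87F, genes of the sperm tail, and betaTub85D, the testis beta tubulin, had hybrid means of -3.37, -3.47 and -4.04. Both accessory gland markers were higher in the hybrid than in either parent, although the testes were labelled as free of that gland. The share of all tested genes called higher was 10.3% against melanogaster and 9.69% against simulans. Acp53Ea stood at 2.52 in the hybrid and at -4.00 in melanogaster, and Acp36DE at -0.68 and -4.76. The list's median on an array was 0.55 to 1.40 in the hybrid, -4.95 to -3.90 in melanogaster and -3.37 to -3.12 in simulans. In mauritiana minus melanogaster 2 of 2 accessory gland markers were higher, where 2.19% of tested genes were called higher. Their median difference was 2.81, and the trpl difference, not called, was 0.17. In mauritiana hybrid minus simulans 1 of 2 was higher, where 2.76% of tested genes were. The median difference was 2.61, and the trpl difference, not called, was -0.14. The median of the 2 group means was -1.56 in mauritiana, -0.60 in the mauritiana hybrid and 0.92 in the melanogaster hybrid. The part of these tissues in the trpl difference was not tested.

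Photoreceptor transmitter genes and neuron markers gave no call of a rise in the melanogaster hybrid. None of 3 neuron markers passed the test in the hybrid against either parent, nor did st, an eye pigment transporter. Among 3 transmitter genes, tan (t) and ebony (e), enzymes of histamine recycling, did not pass, with differences from melanogaster of 0.34 and 0.18. Hdc, the histidine decarboxylase that makes histamine, was lower in the hybrid than in melanogaster, with a difference of -1.80 and an adjusted p of 0.0082, and is named here after its values were seen. Neither gut marker passed, and of 4 muscle markers Act88F alone was lower.

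**Figure D5:**
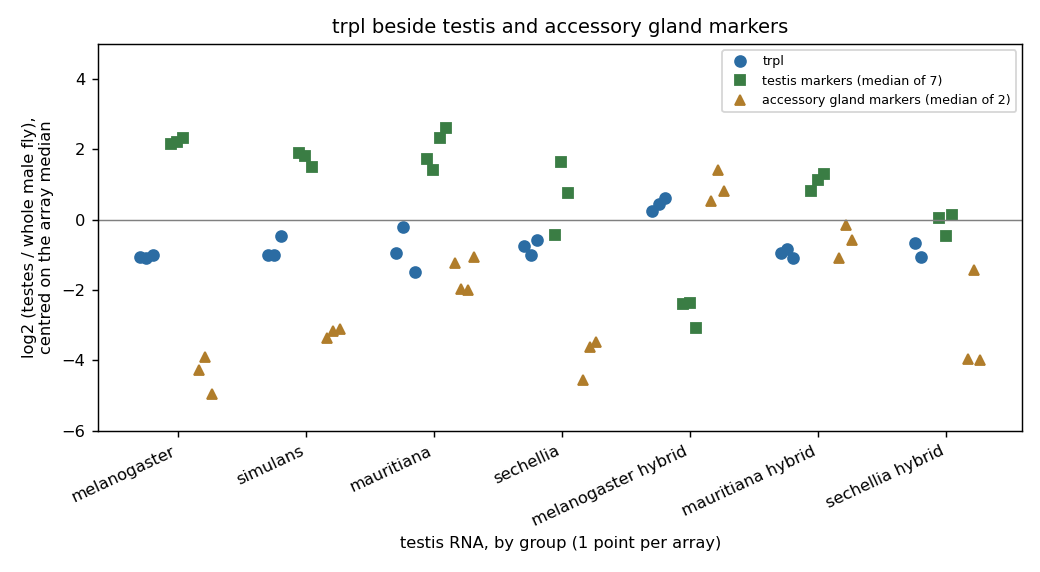
Centred log2 ratio of trpl (circles) on each array, beside the median of 7 testis markers (squares) and of 2 accessory gland markers (triangles), by group. In the melanogaster hybrid trpl and the accessory gland median are above 0 and the testis median lies at -3.09 to -2.36, while in melanogaster and simulans the testis median is above 0 and the other two are below.

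The genes whose pattern over the arrays was most like that of trpl, by Pearson's r among 5016 genes with at least 18 shared arrays, were CG4250 (r = 0.91), CG5577 (0.90), CG14879 (0.89), Nepl21 (0.89) and CG9119 (0.88). These correlations rest on 19 or 20 arrays that share groups and a reference. Over all genes compared, the median r with trpl was 0.05 and the 95th percentile 0.61. Without the sechellia arrays r was 0.91 to 0.95. All 5 genes had higher means in the melanogaster hybrid (0.95 to 4.84) than in melanogaster (-1.42 to -0.46). They were picked for likeness to trpl on these same arrays, so this is not a separate result. The likeness without the melanogaster hybrid arrays was not measured.

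For Arr2, among 5056 genes, the highest were Caper (r = 0.93), CG13339 (0.93), CG5107 (0.92), Pgk (0.92) and CG14015 (0.91), over 18 to 20 arrays. Over all genes compared, the median r with Arr2 was 0.10 and the 95th percentile 0.68. The 5 values rested on sechellia: without its arrays they were 0.65, 0.74, 0.49, 0.23 and 0.70.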

How the data were processed

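The deposited values were 1 table of log ratios per array. Per the labels, testis RNA carried Cy5 and whole-male RNA Cy3, and the sample titles give the order testes over whole fly. The base of these deposited log2 values is inferred from their range; within-array normalization, background correction and probe intensities are not given in the sources used here, so no floor for dim probes was set. Genes were named from the platform annotation: of 27648 rows, 15116 had 1 symbol, 102 several and 12430 none listed.

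Each array was centred on the median of its rows with 1 symbol, and rows of a gene were averaged. The test needed 2 or more values in each group. It was run in limma 3.58.1 (R 4.3.3) on group means of all 22 arrays, with Benjamini-Hochberg adjustment over 5107 genes at 0.05. All adjusted p-values are from limma.

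Replicate numbers were not treated as pairs in the main fit. Residuals of same-numbered arrays of different groups correlated at a median of 0.04 over 63 pairs, and 20 exceeded 0.1. For arrays of different numbers the median was -0.04 over 144 pairs, and 43 exceeded 0.1. The members, lists and rules were chosen with earlier results of these data known. Named were all phototransduction, TRP channel and arrestin genes, up to 3 genes per other list with values on all arrays, and the 5 genes most like each member. Outside this rule, st, which lacked a value on some arrays, was named, as were Hdc and soti.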

Additional observations from a re-analysis of the deposited data

Results flagged for a closer look

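Differences between groups that passed their own test were singled out, and 3 did. trpl was higher in the melanogaster hybrid than in melanogaster by 1.48 and than in simulans by 1.26 on the log2 scale. Arr2 was lower in sechellia than in simulans, at a difference of -2.73, a value that rests on sechellia replicate 3 and was -1.01 without it. The trpl comparisons share the hybrid arrays, so they do not count as separate results.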

How the results depend on the processing

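Arr2 against 0 kept its direction and its call in 6 of 7 groups under each alternative that tested it, and the trpl difference between the melanogaster hybrid and melanogaster kept its call in all 12, at 1.28 to 1.79. Without centring, trpl was -0.65 in sechellia (adjusted p 0.0957), 1.07 in the melanogaster hybrid minus simulans (0.0923) and had an F of 2.53 (0.104), and Arr2 was -2.44 in sechellia minus simulans (0.106). Centred on the tested genes, trpl was -0.78 in the sechellia hybrid (0.0832) and Arr2 was -2.55 in sechellia minus simulans (0.0554). Quantile normalization gave trpl -0.58 in sechellia (0.0929), Arr2 0.98 in sechellia minus simulans (0.181) and 9 pathway genes lower in simulans. Arrays scaled to 1 spread gave 0.85 (0.544) for that Arr2 difference and a count of 8. A single row per gene left Arr2 untested, with 3, 3, 4, 8, 2, 2 and 3 pathway genes lower in melanogaster, simulans, mauritiana, sechellia and the melanogaster, mauritiana and sechellia hybrids. Only 3021 genes were on all arrays, neither member among them, with counts of 1, 2, 2, 4, 2, 2 and 3 in the same order. Genes on 1 array of each group put trpl in the sechellia hybrid at -0.86 (0.061). Running limma on only the arrays compared gave counts of 11 in melanogaster, 9 in simulans and 0 in sechellia. It also gave Arr2 -7.89 in sechellia (0.105) and -2.73 in sechellia minus simulans (0.268), and trpl -0.78 in sechellia (0.235) and -0.86 in the sechellia hybrid (0.246). Array weights gave counts of 11, 10 and 7 in melanogaster, simulans and sechellia, and trpl -0.72 in sechellia (0.3) and 0.44 in the melanogaster hybrid (0.0294). With these weights Arr2 passed in sechellia minus melanogaster at -3.81 (0.00234), mauritiana minus sechellia at 3.61 (0.0168), sechellia hybrid minus sechellia at 3.21 (0.0269) and the F at 3.43 (0.0154). With replicate number as a block, trpl in the sechellia hybrid was -0.91 (0.0538), and no other call on the members changed. Without the sechellia arrays the counts were 10 in melanogaster and 8 in simulans. With the closest arrays averaged, trpl was -0.73 in simulans (0.128), -0.86 in the sechellia hybrid (0.128) and 1.17 in the melanogaster hybrid minus simulans (0.0596), Arr2 was -2.86 in sechellia minus simulans (0.119), and counts were 2 in simulans and 4 in the sechellia hybrid.

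Leaving out 1 array at a time, trpl ran from -1.01 to -0.73 in simulans, -1.21 to -0.58 in mauritiana, -0.88 to -0.67 in sechellia and -1.05 to -0.66 in the sechellia hybrid, with an F of 2.76 to 6.53. Arr2 ran from -3.30 to -0.48 in sechellia minus melanogaster, -3.82 to -1.01 in sechellia minus simulans, 0.29 to 3.10 in mauritiana minus sechellia and 0.22 to 3.03 in sechellia hybrid minus sechellia, with an F of 0.95 to 3.76. Pathway genes lower ran from 2 to 7 in simulans, 5 to 9 in mauritiana, 2 to 7 in the melanogaster hybrid, 4 to 9 in the mauritiana hybrid and 4 to 8 in the sechellia hybrid. For the other genes named with a call, leaving out arrays was added after seeing the data. ninaG in sechellia ran from -4.18 to 0.19, and its sign turned without sechellia replicate 2. Differences of the members that had passed no threshold changed sign in 24 of 360 fits for Arr2 and 27 of 370 for trpl. The causes were not tested. Signal over background is unknown, so how far the lowest Arr2 ratios are limited by dim testis signal could not be measured.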
